A study of Homo sapiens with 20 samples.

Results

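The RGS genes encode regulators of G protein signalling, a family of proteins that switch off signals from G protein-coupled receptors. The 9 described here are RGS1, RGS2, RGS3, RGS10, RGS13, RGS14, RGS16, RGS18 and RGS19, out of 18416 genes with a probe set of their own on the array. They were chosen by their change with 4-hydroxytamoxifen (4-OHT) in these same arrays, among which RGS1 had the largest average rise of any gene, so the changes of these 9 genes are given as a description and without a test. Each gene had 1 probe set annotated to its symbol alone.

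Transcripts were measured in 5 established lines of classical Hodgkin lymphoma, namely SUP-HD1, L428, UHO-1, KM-H2 and L1236. This lymphoma is a tumour of B cell origin. All lines, in both arms, stably expressed FOXO1(3A)ER. This protein fuses an always-active form of the transcription factor FOXO1 with the hormone-binding part of the oestrogen receptor, so that 4-OHT switches it on. Cells were treated for 24 h with 4-OHT (labelled as 200 µM, in a protocol text that names KM-H2 and L428 cells with a KLF4ER fusion) or with ethanol vehicle, and each of the 10 groups was measured on 2 arrays. The arrays hold no treated line lacking the fusion, so FOXO1 activity and other actions of 4-OHT cannot be told apart.

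An activated receptor loads the alpha subunit of a heterotrimeric G protein with GTP, and the alpha subunit and the released beta-gamma pair then drive adenylyl cyclases, phospholipases, lipid kinases and ion channels. RGS proteins bind the active alpha subunit and speed up its hydrolysis of GTP, which ends the signal. In B cells, RGS1 and RGS13 are known for dampening the response to chemokines, the signals that position lymphocytes in a lymph node.

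Values are log2 expression values. A gene was tested if it reached 5 in at least 2 arrays, as 15850 genes did, and was called at an adjusted p below 0.05 (limma, Benjamini-Hochberg over all genes tested). KM-H2 and L428 (8 arrays, medians 5.67 to 5.71) had been normalised apart from L1236, UHO-1 and SUP-HD1 (12 arrays, medians 6.26 to 6.41), so levels were compared between lines only within these sets. Over all genes, the 2 arrays of a group differed with an SD of 0.133 to 0.204, and this small number limits the precision.

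The arrays labelled L1236 stood apart from the other lines in the markers of their cell type. Their vehicle means were high for the T cell genes CD3D (11.35), CD3E (12.22), CD3G (11.91) and CD2 (9.76), which lay between 4.01 and 6.43 in all arrays of the other 4 lines. IRF4, a transcription factor of Hodgkin cells, was at 6.31 in L1236 vehicle, against 12.20 in UHO-1 and 12.12 in SUP-HD1. TNFRSF8 did not follow it, at 7.76, 11.07 and 7.15 in this order, and FUT4 differed little, at 7.86, 8.32 and 8.21. CD40, TRAF1, PAX5, FSCN1, CCL17 and CCL22 were, like IRF4, lowest in L1236. The B cell markers CD79A and CD79B went the other way. Their vehicle means were 9.33 and 7.37 in L1236, 6.11 and 6.04 in UHO-1, and 6.63 and 6.02 in SUP-HD1. Over 12 Hodgkin and B cell markers the mean level was 6.74 to 6.85 in L1236 vehicle arrays, 9.13 to 9.18 in UHO-1 and 8.19 in both SUP-HD1 arrays. Over 17 markers of T cells, myeloid cells, platelets and stroma it was 7.17 to 7.29, 5.96 to 6.10 and 5.995 to 6.05 in the same order. The higher mean in L1236 lay in the T cell genes, among them CD8A (8.93, 6.85 and 7.48). No myeloid or stromal marker was higher there than in both other lines. ITGAM was at 5.63, 6.86 and 6.29, and ACTA2 at 6.84, 9.20 and 9.80. With 4-OHT, the means in the arrays labelled L1236 were 6.94 to 7.05 for the Hodgkin and B cell markers and 7.39 to 7.43 for the others. There, LYZ went from 4.27 to 7.93, CD2 from 9.76 to 8.56 and CD79A, a B cell receptor subunit, from 9.33 to 11.70. MS4A1, which encodes CD20, was below 5 in every array of the series. The part of these differences in the results below was not tested, averages are given with and without L1236, and in such bulk RNA a smaller share of expressing cells and less RNA per cell cannot be told apart.

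RGS1, RGS13, RGS2 and RGS18 lie close together on chromosome 1 in the RefSeq gene table. The sequences upstream of RGS1, RGS13 and RGS2 are shown because these genes stand next to each other there and were all higher with 4-OHT on average. Each run is the 250 bases before the start of the gene, 5′ to 3′ on the plus strand, from RefSeq (GRCh38.p14), at chr1:192575523-192575772 for RGS1, chr1:192635897-192636146 for RGS13 and chr1:192808789-192809038 for RGS2.
RGS1: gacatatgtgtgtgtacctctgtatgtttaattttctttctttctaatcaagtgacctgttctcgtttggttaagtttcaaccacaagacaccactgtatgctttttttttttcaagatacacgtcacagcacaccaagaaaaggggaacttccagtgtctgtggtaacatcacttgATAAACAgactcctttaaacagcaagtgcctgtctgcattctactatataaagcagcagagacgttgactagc
RGS13: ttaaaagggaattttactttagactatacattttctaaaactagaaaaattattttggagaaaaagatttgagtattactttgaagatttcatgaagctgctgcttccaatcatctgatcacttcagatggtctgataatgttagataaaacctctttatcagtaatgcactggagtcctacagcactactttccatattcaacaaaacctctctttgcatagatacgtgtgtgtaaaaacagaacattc
RGS2: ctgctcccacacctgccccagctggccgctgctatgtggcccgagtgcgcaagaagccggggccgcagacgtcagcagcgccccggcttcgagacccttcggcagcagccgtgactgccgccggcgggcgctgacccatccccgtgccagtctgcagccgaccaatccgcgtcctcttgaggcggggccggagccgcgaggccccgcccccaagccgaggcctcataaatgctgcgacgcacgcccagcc
The capitals mark ATAAACA, 1 of 3 forkhead-type motifs searched on both strands. It lies at positions -73 to -67 from the RGS1 start. Of 35116 windows of 250 bases in the RefSeq table, 3.77% hold ATAAACA. The other motifs were GTAAACA (2.98%) and CAAAACA (4.3%), and 10.4% hold any of the 3. Of the 15 windows of the 9 RGS genes, 1 holds a motif, the RGS1 window printed here. A match is a stretch of letters and not a measured binding site, and the motifs were picked after the RGS1 values were known.

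RGS1 (probe set 7908388), which acts on inhibitory and Gq-type alpha subunits and restrains B cell migration, was higher with 4-OHT in all 5 lines. In KM-H2 the vehicle arrays read 6.23 and 6.13 and the 4-OHT arrays 10.03 and 9.98. In L1236 they read 5.21 and 4.99 against 8.93 and 8.81. These were the pair of lines with the lowest vehicle level of their set. The difference was 3.83 ± 0.104 log2 units in KM-H2 (SE, n = 2 arrays per arm, 14.2-fold). In L1236 the vehicle signal was at the floor of 5 log2 units, near background, so its difference is a bound of at least 3.77 (at least 13.6-fold), taken in each array from the higher of the floor and its own value.
L428 read 7.96 and 7.95 in vehicle and 10.14 and 10.08 with 4-OHT, a difference of 2.16 ± 0.104 (4.47-fold). UHO-1 read 8.85 and 8.45 against 10.62 and 10.56, a difference of 1.94 ± 0.104 (3.84-fold). SUP-HD1 started highest, with 10.18 and 9.90 against 10.71 and 10.78, a difference of 0.70 ± 0.104 (1.62-fold). In no line did the arms overlap. The average over the lines was 2.48 ± 0.047 (SE, n = 10 arrays per arm), first among 15850 genes, and it was 2.16 without L1236, 2.99 in KM-H2 and L428 and 2.14 in the other 3 lines. This SE holds the spread between arrays of a group and not that between lines, where the change ran from 0.70 to 3.83.

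Treated levels of RGS1 lay closer together than vehicle levels. KM-H2 and L428 were 1.77 apart in vehicle and 0.11 apart with 4-OHT. In the other set the lines spanned at least 4.94 in vehicle, from L1236 at the floor to SUP-HD1, and 1.87 with 4-OHT. The order of the lines within each set was the same in both arms. This narrowing is a description, because it is made of the same changes by which the gene was chosen.

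**Figure D1:**
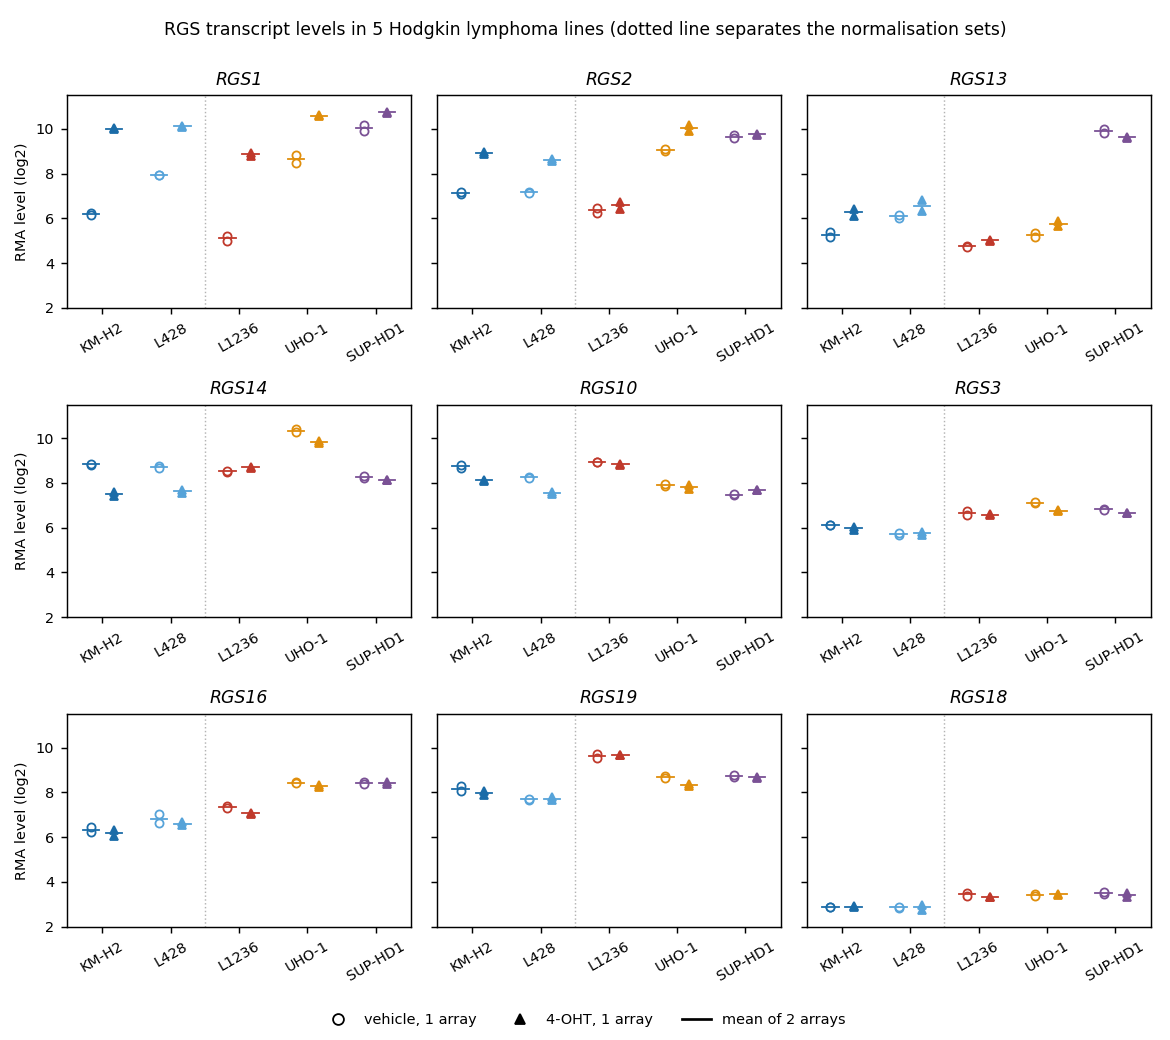
Log2 expression level (RMA, vertical axis) of each of the 9 RGS genes in every array, with vehicle arrays as open circles, 4-OHT arrays as triangles and the mean of 2 arrays as a bar, and a dotted line between the sets of lines that were normalised apart. RGS1 with 4-OHT lies near 10 in KM-H2 and L428 from vehicle levels of 6.18 and 7.95, RGS13 stands high only in SUP-HD1, and RGS18 stays below 5 throughout.

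RGS2 (probe set 7908409), a regulator that prefers Gq-type alpha subunits, was higher with 4-OHT in 3 lines by about 1 log2 unit or more. KM-H2 read 7.07 and 7.18 in vehicle and 8.98 and 8.87 with 4-OHT, a difference of 1.80 ± 0.108 (3.47-fold). L428 read 7.19 and 7.14 against 8.56 and 8.64, a difference of 1.44 (2.71-fold). UHO-1 read 9.01 and 9.09 against 9.89 and 10.19, a difference of 0.99 (1.99-fold). In these 3 lines the arms were apart, whereas they overlapped in L1236 (6.24 and 6.46 against 6.41 and 6.75) and in SUP-HD1 (9.72 and 9.59 against 9.72 and 9.79). Their differences were 0.23 and 0.10 with the same error. The average was 0.91 ± 0.048, ranked 65 of 15850 genes, and 1.08 without L1236.

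RGS13 (probe set 7908397), a regulator typical of germinal centre B cells, was higher with 4-OHT in 4 lines and lower in SUP-HD1. KM-H2 read 5.38 and 5.17 in vehicle and 6.43 and 6.10 with 4-OHT, a difference of 0.99 ± 0.143. UHO-1 read 5.34 and 5.16 against 5.87 and 5.66, a difference of 0.51. L428 read 6.004 and 6.17 against 6.82 and 6.32, a difference of 0.49 that ran from 0.24 without the first 4-OHT array to 0.74 without the second. The arms did not overlap in these lines, but the signal was within about 2 log2 units of the floor. L1236 stayed at the floor, with 4.78 and 4.73 against 5.04 and 4.99. SUP-HD1, where the signal was high, read 10.01 and 9.83 in vehicle and 9.61 and 9.62 with 4-OHT, a difference of -0.30. The average was 0.39 ± 0.064, and 0.42 without L1236.

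RGS18 (probe set 7908376), best known from platelets and megakaryocytes, lay between 2.74 and 3.53 in all 20 arrays. It was the 1 gene of the 9 that did not reach the floor, and it was not tested. The platelet markers PF4 and PPBP were also below 5 in every array.

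RGS14 (probe set 8110327), a scaffold that joins an RGS domain to binding sites for small GTPases and inactive alpha subunits, was lower with 4-OHT mainly in the 3 lines with the largest RGS2 changes. KM-H2 read 8.83 and 8.85 in vehicle and 7.58 and 7.44 with 4-OHT, a difference of -1.33 ± 0.076, or 2.52-fold lower. L428 read 8.74 and 8.65 against 7.69 and 7.57, a difference of -1.06. UHO-1 read 10.40 and 10.28 against 9.90 and 9.79, a difference of -0.49. In SUP-HD1 the arms were also apart in this direction (8.21 and 8.32 against 8.13 and 8.12, a difference of -0.14), and in L1236 they were apart in the other (8.51 and 8.56 against 8.69 and 8.72, a difference of 0.17). The average was -0.57 ± 0.034. It was -0.76 without L1236, -1.20 in KM-H2 and L428, and -0.15 in the other 3 lines.

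RGS10 (probe set 7936673), a small regulator selective for inhibitory alpha subunits and abundant in immune cells, was lower with 4-OHT in KM-H2 and L428. KM-H2 read 8.69 and 8.81 in vehicle and 8.13 and 8.10 with 4-OHT, a difference of -0.64 ± 0.080. L428 read 8.28 and 8.23 against 7.50 and 7.60, a difference of -0.70. In the lines normalised apart from these it did not follow: L1236 read 8.93 and 8.94 against 8.87 and 8.81 (-0.09), UHO-1 7.89 and 7.94 against 7.72 and 7.92 (-0.09), and SUP-HD1 was higher with 4-OHT, with 7.46 and 7.50 against 7.69 and 7.71 (0.22). The average of -0.26 ± 0.036 thus came from KM-H2 and L428 (-0.67), and it was 0.01 over the other 3 lines and -0.30 without L1236.

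RGS3, RGS16 and RGS19 differed by less than 0.36 log2 units between the arms in every line. RGS3 (probe set 8157324), which also binds beta-gamma subunits, differed most in UHO-1, where it read 7.10 and 7.14 in vehicle and 6.75 and 6.77 with 4-OHT (-0.36 ± 0.103). RGS16 (probe set 7922717), a regulator of chemokine and other inhibitory receptor signals in lymphocytes, differed most in L1236, with 7.38 and 7.29 against 7.07 and 7.05 (-0.27 ± 0.116). RGS19 (probe set 8067802), a membrane-attached regulator selective for inhibitory alpha subunits, differed most in UHO-1, with 8.72 and 8.64 against 8.39 and 8.27 (-0.35 ± 0.087). Their averages were -0.15, -0.16 and -0.10. The sign of RGS3 and RGS19 in L428 and of RGS16 in SUP-HD1, all changes under 0.03, turned under median centring of the arrays.

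Of the 8 RGS genes above the floor, 3 were called higher (RGS1, RGS2 and RGS13) and 5 lower on average, where 17.4% of all genes tested were called higher, 21.2% lower and 38.6% either way. Nothing is read from these counts, since the genes were selected on this contrast. Without L1236, 3 were called higher and 4 lower. By line, 6 of 8 were called in UHO-1 (24.5% of all genes) and 5 each in KM-H2 (22.3%) and L428 (29.5%). The single gene called in L1236 (23.1%) and in SUP-HD1 (6.03%) was RGS1. The median change of the 8 genes was -0.12 on average, against -0.02 over all genes tested.

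**Figure D2:**
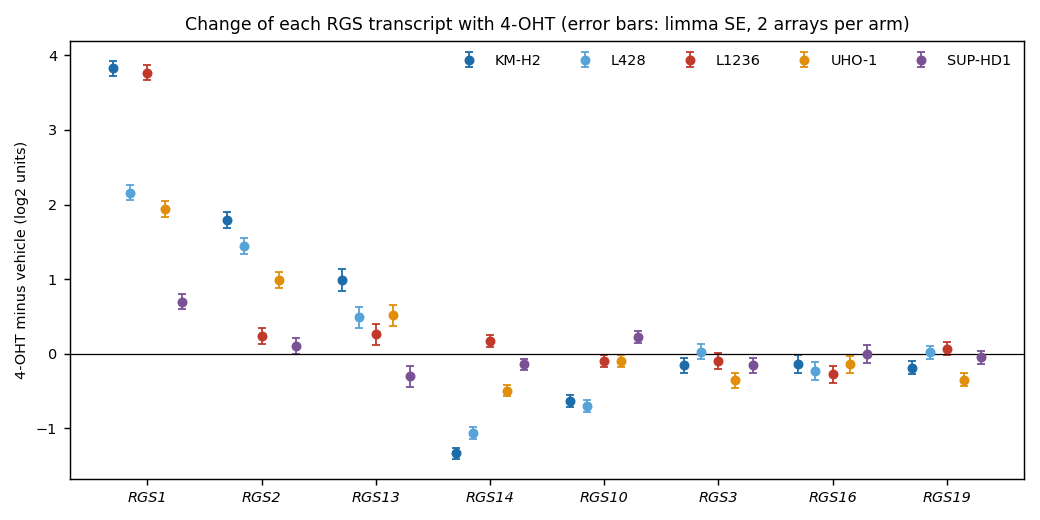
Change of the 8 RGS genes above the floor with 4-OHT (vertical axis, 4-OHT minus vehicle in log2 units) in each of the 5 lines, with limma's standard error as bars (2 arrays per arm). RGS1 lies above 0 in all lines, from 0.70 in SUP-HD1 to 3.83 in KM-H2, RGS14 and RGS10 lie furthest below 0 in KM-H2 and L428, and RGS3, RGS16 and RGS19 lie near 0.

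Over the 20 arrays, with each line centred on its own mean, RGS2 and RGS14 ran in opposite directions (Pearson r = -0.958) and RGS10 and RGS14 in the same one (0.878). RGS1 followed RGS2 less closely (0.815). These correlations describe arrays that share lines and a treatment, and they were not tested.

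Vehicle arrays are part of the treatment contrast by which the genes were chosen. The levels in untreated cells are therefore not independent of that choice. How far the choice shaped the differences between lines was not tested, and the p-values do not allow for it. With this limit, the lines were tested against each other within each set. Most genes tested differed in every such comparison, so sizes are given beside the counts. Between KM-H2 and L428, 6 of the 8 RGS genes were called (54.2% of all genes). Between L1236 and UHO-1, 8 were called (56.8%), between L1236 and SUP-HD1, 7 (57.5%), and between UHO-1 and SUP-HD1, 6 (53.8%). The median absolute difference of the 8 genes was 0.476, 1.06, 1.27 and 0.522 log2 units in these comparisons, beside 0.284, 0.299, 0.318 and 0.276 over all genes.

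RGS13 was high in SUP-HD1 and near or below the floor in the other 2 lines of its set. Its vehicle mean was 9.92 in SUP-HD1, 5.25 in UHO-1 and 4.76 in L1236. Against signals so near background only a bound is given: SUP-HD1 stood at least 4.67 log2 units above UHO-1 (at least 25.4-fold, limma adjusted p = 4.57e-18 for the measured values) and at least 4.92 above L1236 (at least 30.2-fold, adjusted p = 2.95e-19). UHO-1 was above L1236 by 0.49 (adjusted p = 0.00495), a call that was lost without the first UHO-1 vehicle array (adjusted p = 0.0626). L428 was above KM-H2 by 0.81 (6.09 against 5.28, adjusted p = 3.47e-05).

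RGS1 and RGS2 had the same order of lines, SUP-HD1 highest, then UHO-1, then L1236. For RGS1 the means were 10.04, 8.65 and 5.10. SUP-HD1 exceeded UHO-1 by 1.39 ± 0.104 (adjusted p = 5.50e-11) and L1236, which was at the floor, by at least 4.94 (at least 30.7-fold, adjusted p = 1.99e-21 for the measured values). In the other set L428 exceeded KM-H2 by 1.77 (7.95 against 6.18, adjusted p = 7.01e-13). For RGS2 the means were 9.65, 9.05 and 6.35, with SUP-HD1 above UHO-1 by 0.61 ± 0.108 (adjusted p = 3.81e-05) and above L1236 by 3.30 (adjusted p = 5.63e-18). RGS2 in KM-H2 and L428, at 7.13 and 7.16, did not differ beyond the spread (adjusted p = 0.822).

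RGS14 and RGS10 had other orders. RGS14 was highest in UHO-1 (10.34), 2.08 ± 0.076 above SUP-HD1 (8.26, adjusted p = 1.07e-16) and 1.81 above L1236 (8.53, adjusted p = 9.41e-16). L1236 was above SUP-HD1 by 0.27 (adjusted p = 0.00394), a call lost without the first SUP-HD1 vehicle array (0.0575). KM-H2 and L428 (8.84 and 8.70) were not called apart (adjusted p = 0.121) but were with quantile normalisation (0.0222). RGS10 was highest in L1236 (8.94), 1.02 ± 0.080 above UHO-1 (7.91, adjusted p = 9.90e-11) and 1.46 above SUP-HD1 (7.48, adjusted p = 1.11e-13), and KM-H2 exceeded L428 by 0.49 (8.75 against 8.25, adjusted p = 1.07e-05).

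Among the others, RGS19 was also highest in L1236 (9.61), by 0.93 ± 0.087 over UHO-1 (adjusted p = 2.34e-09), and RGS16 was lowest there (7.33), by 1.10 ± 0.116 under UHO-1 (8.43, adjusted p = 1.71e-08). UHO-1 and SUP-HD1 did not differ beyond the spread in RGS16 (adjusted p = 0.934) or RGS19 (0.619). RGS3 differed least, with at most 0.45 between L1236 (6.67) and UHO-1 (7.12, adjusted p = 0.000658). Its difference of 0.29 between UHO-1 and SUP-HD1 (adjusted p = 0.0207) was not called under median centring (0.0721) or when either UHO-1 vehicle array or the second SUP-HD1 vehicle array was left out (0.0557 to 0.101). Comparisons with L1236 rest on arrays whose T cell genes and IRF4 go against the label. Those between UHO-1 and SUP-HD1 and between KM-H2 and L428 do not include these arrays.

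Of 12 further RGS genes with a probe set, 9 reached the floor. With 4-OHT, 0 of these were called higher or lower on average by limma, where 38.6% of all genes were. In a single line 4 were called lower, 2 in KM-H2, 1 in L428 and 1 in UHO-1. Of all genes, 22.3%, 29.5% and 24.5% were called in these lines, so these single calls do not stand out. At an unadjusted p below 0.05 there was 1 on average, RGS11 (-0.11 ± 0.052, adjusted p = 0.0987). RGS11 passed with median centring (0.0457) and with quantile normalisation (0.0419). RGS5, a regulator of vascular cells, fell in KM-H2 by 0.43 ± 0.132 (adjusted p = 0.0201), a call lost when any 1 of the 4 KM-H2 arrays was left out. Its arrays there read 5.22 and 5.25 in vehicle and 4.85 and 4.75 with 4-OHT, around the floor and near background. In the fit to KM-H2 and L428 alone its average of -0.375 was called (adjusted p = 0.00104). RGS11, a partner of the beta subunit GNB5, fell in UHO-1 by 0.40 ± 0.117 (0.0181), a call lost without the second vehicle array (0.134) or either 4-OHT array (0.0936 and 0.0708) of that line. Named after their values were seen, RGS12 fell in KM-H2 by 0.33 ± 0.106 (0.0289) and RGS9 in L428 by 0.34 ± 0.112 (0.0224). In SUP-HD1, RGS9 read 9.76 and 9.64 in vehicle and 10.05 and 10.02 with 4-OHT. That rise of 0.34 was not called (0.0824). The RGS12 call was lost without any 1 of the 4 KM-H2 arrays (0.0670 to 0.186) and with a replicate block (0.0662). The RGS9 call was lost in the fit to KM-H2 and L428 alone (0.0516), without either L428 vehicle array (0.0563 and 0.117) and without the second L428 4-OHT array (0.410).
In vehicle, RGS9, best known from photoreceptors and the striatum, was at 9.70 in SUP-HD1, against 6.88 in UHO-1 and 5.96 in L1236. The step from UHO-1 to SUP-HD1 was 2.82 ± 0.112 (adjusted p = 5.45e-16). SUP-HD1 was thus the line with the highest RGS1, RGS2, RGS9 and RGS13 levels of its set.

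The genes next to the cluster on chromosome 1 were compared with it. In gene order, counting genes with a probe set, they are PLA2G4A, BRINP3, RGS18, RGS21, RGS1, RGS13, RGS2, UCHL5 and RO60. RGS21, like RGS18, was below 5 in all arrays (at most 4.04). Outside the RGS genes the average changes were at most 0.29 in size. PLA2G4A, a phospholipase that releases arachidonic acid, rose on average by 0.27 ± 0.039 (adjusted p = 8.00e-06), and RO60, an RNA-binding autoantigen, by 0.23 ± 0.040 (8.22e-05). UCHL5, a deubiquitinase of the proteasome, fell by 0.29 ± 0.049 (4.33e-05), and BRINP3 fell by 0.17 ± 0.048 (0.00632), a call lost without KM-H2 (0.377). BRINP3 lay between 3.82 and 5.19 in all arrays, near background. RO60 was not called in the fit to L1236, UHO-1 and SUP-HD1 alone (0.168). These averages compare with 2.48 for RGS1, 0.39 for RGS13 and 0.91 for RGS2. By line, PLA2G4A was near RGS13 in L428 (0.48 against 0.49) and in UHO-1 (0.47 against 0.51).

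**Figure D3:**
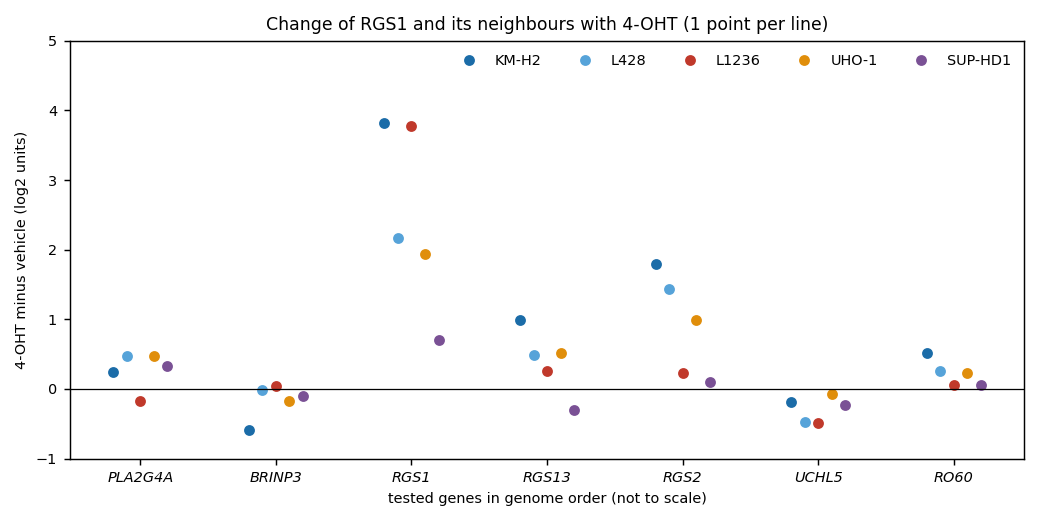
Change with 4-OHT (vertical axis, 4-OHT minus vehicle in log2 units) of RGS1 and of the tested genes on either side of it, in genome order and not to scale, with 1 point for each of the 5 lines. RGS1, RGS13 and RGS2 include changes of 0.99 to 3.83 in KM-H2. The outer genes stay within about 0.6 of 0 in all lines, as does RGS13 in the lines other than KM-H2.

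The genes whose level most resembled RGS1 over the 20 line-centred arrays were CCR7 (Pearson r = 0.977), the chemokine receptor that guides lymphocytes to T cell zones, LRRC8D (0.966), a subunit of volume-regulated anion channels, and HIPK3 (0.966), a protein kinase. For RGS2 they were TES (0.982), a focal adhesion protein, TLR1 (0.977), a receptor for bacterial lipopeptides, and JMY (0.973), an actin regulator. For RGS14 they were CNPY3 (0.968), a chaperone of Toll-like receptors, POLD1 (0.965), a DNA polymerase subunit, and ASB2 (0.959), a ubiquitin ligase subunit. These are the highest of all genes tested and are given without a test. As in RGS1, CCR7 changed most in L1236 and KM-H2 and least in SUP-HD1.

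The kinases and arrestins that switch off receptors upstream of the G protein were mostly lower. Of 7 such genes 6 had a probe set, and all 6 were tested. The median change of the 6 genes was -0.32, against -0.02 over all genes. On average 0 rose and 5 fell, while GRK4 was not called at an unadjusted p below 0.05 either. That is 83.3% called lower, where 21.2% of all genes were. Without L1236, 0 rose and 4 fell (66.7% lower, against 19.5% of all genes). Lists this small are described and were not tested as groups. These lists of other genes were drawn up with earlier results of these data known.
GRK5, a kinase that phosphorylates activated receptors, fell on average by 0.65 ± 0.048 (n = 10 arrays per arm, adjusted p = 2.57e-10) and was lower in all 5 lines. It fell by 0.99 in KM-H2, by 1.00 in L428 and by 0.53 in both UHO-1 and L1236, all called, while in SUP-HD1 the change was -0.18 (adjusted p = 0.445). With the mean of its probe sets the average was -0.37, still called, and L1236 was not (0.0664).
GRK6, the related kinase of lymphocytes, fell in L428 by 1.21 ± 0.065 (adjusted p = 2.33e-12) and in UHO-1 by 0.45 (2.59e-05) but rose in L1236 by 0.31 (0.000839). Its average of -0.27 (8.43e-08) was -0.04 without L428 and no longer called (0.440). ARRB1, a beta-arrestin, fell in L1236 by 1.25 ± 0.178 (1.15e-05) and in KM-H2 by 0.70 (0.00501, lost without the second KM-H2 vehicle array, 0.0721), with an average of -0.36 (0.000795) that was -0.14 without L1236 (0.237). GRK3, named after its values were seen, fell on average by 0.37 ± 0.040 (8.34e-08) and in L428, L1236 and UHO-1. GRK2, also named afterwards, fell on average by 0.16 (0.000341), a call absent from the fit to L1236, UHO-1 and SUP-HD1 alone (0.715). In L1236 it rose by 0.31 (0.00200).

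**Figure D4:**
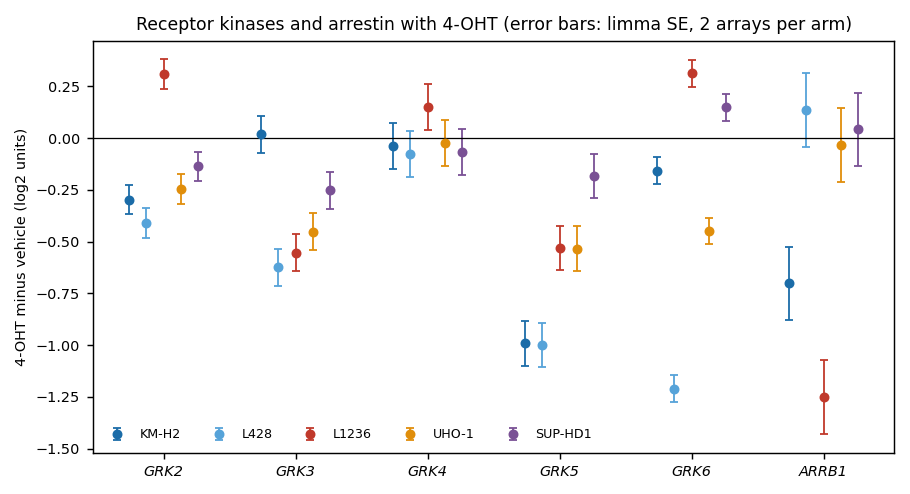
Change with 4-OHT (vertical axis, 4-OHT minus vehicle in log2 units) of the 6 tested receptor kinase and arrestin genes in each of the 5 lines, with limma's standard error as bars (2 arrays per arm). GRK5 lies below 0 in all 5 lines, GRK6 reaches -1.21 in L428 and ARRB1 -1.25 in L1236, and GRK4 stays near 0.

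The G protein subunits were called at 41.7% of 24 tested, near the 38.6% of all genes, and in both directions. Of 11 alpha subunits tested, 3 rose, 2 fell and 6 were not called (45.5% called). GNA12 rose on average by 0.32 ± 0.029 (adjusted p = 6.04e-09), with 0.67 in L428, 0.59 in SUP-HD1 and 0.46 in UHO-1, all called. Its changes of 0.05 in KM-H2 and -0.17 in L1236 were not called (adjusted p = 0.733 and 0.0646), though the one in L1236 was with median centring (0.0314) and without the first L1236 vehicle array (0.0209). GNAI2, the main inhibitory alpha subunit of lymphocytes and a substrate of most RGS proteins here, rose by 0.18 ± 0.024 (2.48e-06), of which 0.66 ± 0.054 lay in L428. Without L428 it was 0.06 and not called (0.103). GNAI3, a close relative, rose by 0.08 (0.0368) and lost the call without UHO-1 (0.546), with median centring (0.153) and with a replicate block (0.0576), among others.
Of 13 beta and gamma subunits, 4 rose, 1 fell and 8 were not called (38.5% called). GNG2, a gamma subunit of leukocytes, rose on average by 0.45 ± 0.031 (5.78e-11) and was called in all 5 lines, from 0.28 in L1236 and KM-H2 to 0.90 in L428, though not in L1236 or KM-H2 with the mean of its probe sets (0.105 and 0.377), nor in L1236 with median centring (0.0609). GNG11 rose in L428 alone, by 2.12 ± 0.138 (6.71e-11), and its average of 0.44 was 0.02 without L428 (0.876). GNB1, the most widespread beta subunit, rose by 0.06 ± 0.018 (0.0124), a call lost with median centring (0.0928) and without UHO-1 (0.0916), among others.

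Of 23 receptors of lymphocytes tested, 5 rose, 8 fell and 10 were not called, a share of 56.5% called beside 38.6% of all genes. Without L1236, 3 rose and 9 fell (52.2%, beside 37.2% of all genes). CCR7 rose on average by 0.73 ± 0.025 (adjusted p = 2.90e-16), with 1.35 in L1236, 1.09 in KM-H2, 0.77 in L428 and 0.33 in UHO-1, all called. In SUP-HD1 its change of 0.12 was not called (0.281). CCR4, a receptor for CCL17 and CCL22, fell by 0.49 ± 0.065 (1.89e-06) and was lower in all 5 lines, by 0.79 in KM-H2, 0.60 in UHO-1 and 0.54 in L1236, where it was called. The calls in UHO-1 and L1236 were each lost when an array was left out (up to 0.112).
CCR1 (-0.15, 0.0213) and P2RY8 (-0.15, 0.0287), a confinement receptor of germinal centre B cells, also fell on average, but CCR1 was lost without SUP-HD1 (0.257), among others. P2RY8 lost the call in 12 of 34 alternatives, among them the replicate block (0.0635) and the average without UHO-1 (0.216). S1PR4, a receptor for sphingosine 1-phosphate, rose in L1236 by 1.26 ± 0.141 (4.64e-07) and fell in UHO-1 by 0.54 (0.00856), the latter a call lost without the second UHO-1 vehicle array (0.0637) or the first 4-OHT array (0.119). Its average of 0.20 was -0.06 without L1236.

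Of 26 effectors tested, 9 rose, 2 fell and 15 were not called (42.3% called, near the 38.6% of all genes). Without L1236, 4 rose and 5 fell (34.6%, beside 37.2% of all genes). The 2 that moved most in 1 line did so in L1236, namely PREX1, an exchange factor for Rac driven by beta-gamma, by 1.73 ± 0.114 (1.15e-10), and PIK3R5, the adaptor of the beta-gamma-driven lipid kinase, by 1.60 ± 0.140 (1.03e-08). The average of PREX1 was 0.27 with L1236 and -0.09 without it. The average of PIK3R5 was 0.49 ± 0.063 (1.07e-06), and it was not called over KM-H2 and L428 alone (0.361). ADCY3, an adenylyl cyclase, fell by 0.24 ± 0.034 (5.37e-06) and was lower in all 5 lines. PIK3R6, the alternative adaptor, fell by 0.20 ± 0.056 (0.00616), of which 0.70 lay in SUP-HD1, and was not called without that line (0.399).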

How the data were processed

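The 9 RGS genes and the lists of other genes were chosen with earlier results of these data known. Per the labels' protocols and the series' design text, total RNA labelled by the whole transcript sense assay was measured on Affymetrix Human Gene 1.0 ST arrays. Values are the log2 levels that the authors deposited, made with RMA (robust multichip averaging), whose version is not given in the sources used here. RMA corrects background, normalises between arrays and summarises probes, which compresses low values. The deposited log2 values formed 2 sets normalised apart: sorted values differed by at most 0.253 between arrays of a set and by at least 0.712 between sets.

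Of 33268 probe sets, 19457 had 1 symbol, 1751 had several and 12060 were not listed in the platform annotation. The Entrez identifiers of 19426 were found in the RefSeq table of GRCh38.p14, and 0 symbols changed. For the array no genome build was found, and RefSeq gave names, chromosomes, gene order and the printed sequences. Where a gene had several (767 genes), the probe set of highest mean stood for it. Of 107 genes in the 6 pathway lists, 98 had a probe set and 88 were tested.

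With limma 3.58.1 in R 4.3.3, 10 group means were fitted to all 20 arrays (eBayes with trend, 10 residual and 11.8 prior degrees of freedom), and the code was tested on simulated data. It compared 4-OHT with vehicle in every line and on average, and 4 pairs of vehicle groups. Errors are limma's standard errors. They hold the spread between arrays of a group, also for averages over the lines, and not the spread between lines. The labels report 2 runs of the experiment but do not tie arrays to cultures, so p-values reflect differences between arrays that may be technical in part.

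Named from each list were genes called on average and moving the same way in all 5 lines (up to 4) and the 2 with the largest called change in 1 line, and from the gene order the 4 genes with a probe set on each side of RGS1. For each RGS gene that changed by at least 1 log2 unit in a line, the 3 genes most correlated with it were named. Alternatives were other floors, median centring, quantile normalisation, the mean of probe sets, no trend, a replicate block, each set alone and leaving out each line or array.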

Additional observations from a re-analysis of the deposited data

Results flagged for a closer look

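In 3 RGS genes the arms were apart without overlap in opposite directions in different lines. This difference was not tested because the genes were chosen on these changes. The change against the others was not called in any of the 3. It was 0.22 for RGS10 in SUP-HD1, -0.30 for RGS13 in SUP-HD1 and 0.17 for RGS14 in L1236. How many of all genes show such a split, with 2 arrays per arm, was not counted. The largest minus the smallest change over the lines was 0.925 log2 units for RGS10 (lower in KM-H2 and L428, higher in SUP-HD1), 1.29 for RGS13 (higher in KM-H2, lower in SUP-HD1) and 1.50 for RGS14 (lower in KM-H2, higher in L1236).

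For 19 other named genes, limma's F test found that the change with 4-OHT differed between the lines (adjusted over all genes tested). Among the receptor kinases and arrestins the adjusted p was 6.76e-11 for GRK6, 3.84e-05 for GRK2, 0.000297 for ARRB1, 0.000468 for GRK5 and 0.00146 for GRK3. Among the G protein subunits it was 1.00e-08 for GNG11, 2.22e-07 for GNA12, 7.98e-07 for GNAI2 and 8.60e-05 for GNG2. For the receptors it was 7.52e-11 for CCR7 and 3.77e-06 for S1PR4, and for the effectors 4.38e-09 for PREX1, 4.47e-06 for PIK3R5 and 0.0128 for PIK3R6. It was 0.00992 for RGS9 and 0.0211 for RGS5, and beside RGS1 0.000839 for PLA2G4A, 0.0115 for BRINP3 and 0.0244 for RO60. In PREX1, PIK3R5 and S1PR4 the line that stood apart was L1236, whose T cell genes and IRF4 go against its label. The part of that in these differences was not tested.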

How the results depend on the processing

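The differences of the RGS genes between vehicle groups were recomputed 896 times over all alternatives. Of these, 885 values kept direction and call, 6 lost the call, 1 gained it, 4 uncalled values changed sign, and 0 called values reversed. Many of the alternatives could not change the difference itself. Other floors, no trend, the mean of probe sets and leaving out an array of another group left it identical. The count of 885 is therefore no measure of robustness, and the same limit holds for the changes with 4-OHT by line. The changes of the RGS genes with 4-OHT, recomputed 1392 times, moved by more than the spread 53 times, and the sign turned in 14. Of these, 1 was a called value, the average of RGS10, which was 0.0102 in L1236, UHO-1 and SUP-HD1 alone. The other sign turns were in uncalled changes of RGS3, RGS10, RGS16 and RGS19 in single lines, none above 0.0582 in size as recomputed. Of the other named genes, PREX1 reversed on average in KM-H2 and L428 alone (-0.134) and without L1236 (-0.0937), S1PR4 without L1236 (-0.0627), and GRK6 in the 3 lines normalised together (0.0047). The cause of each was not tested, beyond the fewer lines that enter these averages. Leaving out 1 array moved the count of list genes called in KM-H2 from 20 to between 11 and 21, with 11 without vehicle 2 and 13 without 4-OHT 1. In UHO-1 the count was 19, and it fell furthest below this when any of the UHO-1 arrays was left out. Under the alternatives other than leaving out an array it was 15 to 19. The list genes called on average were 39, and between 28 and 41 over 34 alternatives.

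Same-numbered arrays of the 2 arms did not deviate together in all lines (r of deviations from -0.557 in L1236 to 0.294 in UHO-1). Such mixed values cannot decide whether the numbers mark the reported runs of the experiment. With a replicate block, 36 list genes were called on average instead of 39, and by line 25 in L1236, 23 in L428, 19 in KM-H2, 15 in UHO-1 and 9 in SUP-HD1. The block left 6, 8, 7 and 6 RGS genes called between vehicle levels. Arrays have no read depth, and signals near 5, as for RGS13 outside SUP-HD1, are near background, where changes are understated.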

Other observations

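The gene order around RGS14 on chromosome 5 was examined after its values were seen, and GRK6 proved to be the fourth gene with a probe set after it. The changes of the 2 genes by line were -1.33 and -0.16 in KM-H2, -1.06 and -1.21 in L428, 0.17 and 0.31 in L1236, -0.49 and -0.45 in UHO-1, and -0.14 and 0.15 in SUP-HD1, with RGS14 given first. The genes between them were not alike: SLC34A1, a phosphate transporter, was at 0.01 ± 0.050 log2 units on average (limma adjusted p = 0.872), PFN3 at -0.05 ± 0.049 (0.484) and F12, a coagulation factor, at -0.22 ± 0.052 (0.00144). On the other side, LMAN2, a cargo receptor of the secretory pathway, was not called. MXD3, a partner of MAX, was at 0.05 ± 0.041 (0.392), PRELID1, a mitochondrial lipid carrier, at -0.26 ± 0.021 (1.94e-09) and RAB24 at -0.13 ± 0.038 (0.00649). In the line order above, RAB24 was at -0.25, -0.49, 0.21, -0.14 and -0.008, with the sign of RGS14 in every line. MXD3 was at -0.04, -0.47, 0.90, -0.15 and 0.003, with the sign of GRK6 in every line. SLC34A1, PFN3, F12, LMAN2 and PRELID1 shared neither set of signs. Likeness by line was thus not confined to RGS14 and GRK6.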
